A study of Mus musculus with 2 samples.

Results

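The cells described here were fibroblasts of the mouse intestine sorted in silico as adventitial: cells that carried fibroblast collagen transcripts and more UMIs of Has1, Dpt, Col14a1, Pcolce2 and Scara5 than of Adamdec1, Tcf21, C1qtnf3, Cxcl13 and Igfbp3. A UMI is a molecular tag that counts 1 captured RNA molecule once. Among 15156 cells kept from the study, 538 met this rule: 125 of 8247 in the Butyrate library and 413 of 6909 in the RA library. Cells were kept where UMIs numbered 500 or more, detected genes 250 or more, and mitochondrial UMIs made up no more than 25%. A member then had at least 5 UMIs of Col1a2 and Col3a1 together, 0 of Cdh5, 0 of Epcam and at most 1 of Cd79a, and its summed count of the first 5 genes was at least 2 and at least 2 times that of the second 5. The cells set beside them, called lamina propria fibroblasts, met the same collagen gate and the mirror image of the rule, and numbered 155 in the Butyrate library and 289 in the RA library. The cells were thus chosen by the measured counts of these 15 genes, and every difference between the adventitial and the lamina propria cells is given as a description.

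Adventitial fibroblasts lie in the connective tissue around blood vessels and in the outer layers of the gut wall, away from the epithelium. They lay down the loose fibrous matrix of those layers, and cells of this kind in many mouse tissues share a programme that includes Pi16, Cd34 and Ly6a and that has been linked to a mesenchymal progenitor state. Fibroblasts of the lamina propria sit closer to the epithelium, and some of them supply BMP and WNT ligands to it. Fibroblasts at the crypt base that secrete Grem1 and R-spondins, called trophocytes, support intestinal stem cells.

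Each library came from the dissociated whole intestine of 1 mouse. The Butyrate mouse was wild type and ate a diet with 1% butyrate, a bacterial product of dietary fibre in the gut. The RA mouse was wild type and ate standard chow, and the study's design text names its group CIA, the usual abbreviation of collagen-induced arthritis. Whether arthritis was also induced in the Butyrate mouse is not stated in the labels, which give no strain, age or sex for either animal, and the diet, the animal and the library cannot be told apart. With 1 mouse a group there was no test. Ratios between the mice carry exact 95% counting intervals, which cover counting error only and not differences between animals, dissociations or libraries. They treat UMIs as independent, so the spread between cells, as where 1 cell holds many of a gene's UMIs, is not covered either.

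The Butyrate library held 9959 barcodes and 67894477 UMIs, and the RA library 10140 barcodes and 61912439 UMIs. Mitochondrial UMIs passed the limit in 15.4% of Butyrate barcodes and 29.95% of RA barcodes. The libraries shared 27 barcodes, and 0 of the adventitial barcodes were shared. The adventitial fibroblasts summed to 1049909 UMIs in the Butyrate library and 3381122 in the RA library, with medians of 8216 and 7676 UMIs and of 2815 and 2786 genes per cell. Their depth was thus nearly the same, except that the Butyrate library began at 2313 UMIs and 19 RA members lay under that number.

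The 5 sorting genes were carried by most members and not by a few deep cells. To compare shares at equal depth, every cell was thinned to 2000 UMIs, which left out 0 Butyrate and 15 RA members. Dpt, which encodes dermatopontin, a small matrix protein that binds decorin and collagen fibrils, then had a UMI in 95.2% of Butyrate and 94.975% of RA adventitial cells. Col14a1, which encodes a fibril-associated collagen, had one in 93.6% and 90.2%. Has1, a hyaluronan synthase, had one in 61.6% and 58.8%, Pcolce2, an enhancer of procollagen processing, in 57.6% and 66.6%, and Scara5, a ferritin receptor, in 54.4% and 55.8% of the Butyrate and RA cells. Adamdec1, a metalloprotease of gut lamina propria, had a UMI in 1.60% and 0.251% of adventitial cells, against 100% and 98.6% of lamina propria fibroblasts, a share fixed by the rule. In B cells, sorted by Cd79a as a class that should lack these genes, Dpt was in 0.026% of Butyrate and 0.283% of RA cells and Col14a1 in 0.103% and 0.525%. Free RNA in the droplets, as far as these B cells show it, gave Dpt and Col14a1 to under 1% of cells. Cells with a UMI of Col1a2, Col3a1 or Epcam had been left out of the B cell class, so free RNA of fibroblasts may be understated. The decorin gene Dcn, not used in that choice, had a UMI in 0.206% of Butyrate and 1.37% of RA B cells.

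**Figure D1:**
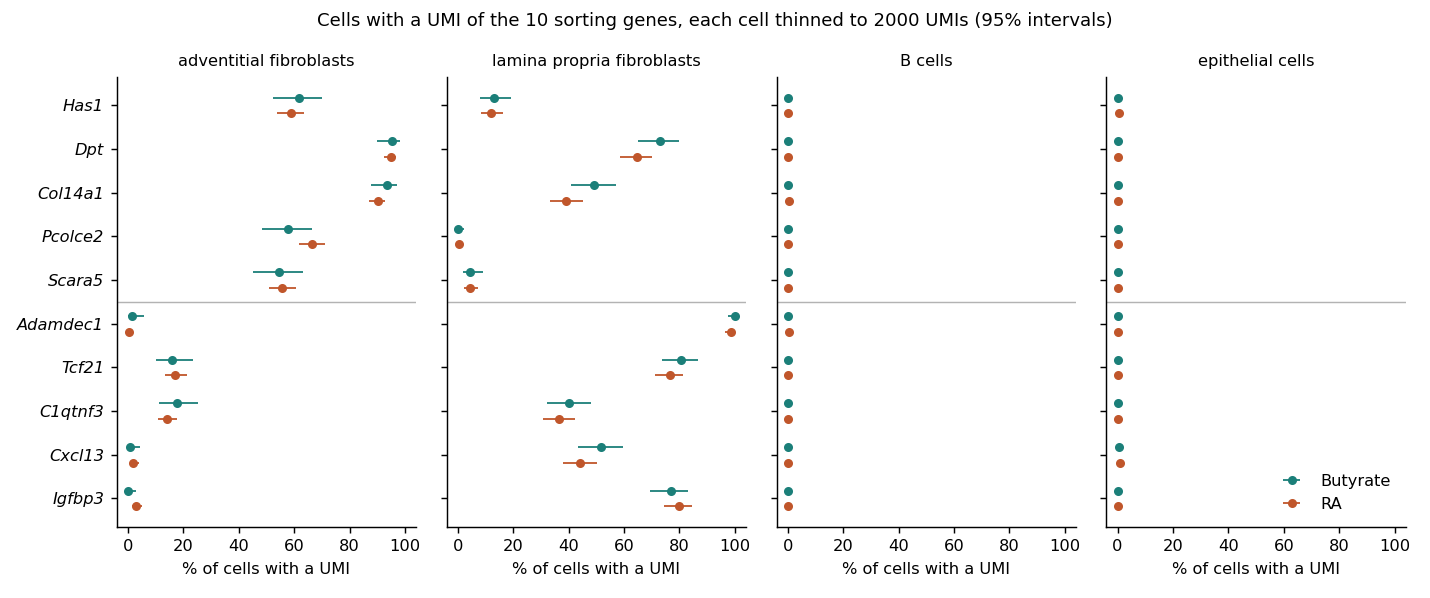
Share of cells with at least 1 UMI of each of the 10 sorting genes (horizontal axis, percent, every cell thinned to 2000 UMIs) in 4 cell classes, Butyrate points above RA points, with exact binomial 95% intervals. Dpt and Col14a1 were in over 90% of adventitial cells of both mice and stayed near 0 in B cells and epithelial cells, while Dpt was also in 72.9% and 64.6% of lamina propria fibroblasts.

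Few members sat near the limits of the rule. The summed count of the 5 adventitial genes had a median of 58 in Butyrate members and 48 in RA members, and was 10 or more in 120 and 396 of them. It was 2 to 4 in 2 Butyrate and 6 RA members. All 5 genes were present in 77 Butyrate and 232 RA members, and a single 1 of them in 3 and 7. Among cells with a UMI of the lamina propria genes, 6 Butyrate and 10 RA members were just inside the limit, at 2 to 3 times those genes, and 4 and 4 cells were just outside it. In the collagen gate, 17 Butyrate and 34 RA cells belonged to neither class. Moving the limits would therefore shift few cells.

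The cells were checked against markers of fibroblasts and of other cells. Decorin (Dcn) had a UMI in 98.4% of Butyrate and 100% of RA adventitial cells after thinning, lumican (Lum) in 84.0% and 81.4%, and Pdgfra, a growth factor receptor of fibroblasts, in 49.6% and 58.3%. These genes mark fibroblasts and not the adventitial class: in lamina propria fibroblasts Dcn was in 95.5% and 96.4% and Pdgfra in 58.7% and 59.6% of Butyrate and RA cells. The endothelial genes Cldn5, of tight junctions, and Tie1, a receptor, had 0 UMIs in both libraries' members, and the rule had fixed Cdh5 at 0. Endothelial RNA was not absent, however. Without thinning, Pecam1 had a UMI in 19.2% of Butyrate and 19.1% of RA members. Of 9 blood endothelial genes, 6 were at 0 in the Butyrate and 5 in the RA members. At least 3 UMIs of these 9 genes were found in 10 Butyrate and 30 RA members. The summed level of the 9 genes was 79.1 CPM in Butyrate and 73.1 CPM in RA members. CPM is the UMI count of a gene summed over the cells and scaled to a total of 1000000. Smooth muscle genes summed to 94.3 and 119 CPM, pericyte genes to 61.9 and 59.4 CPM, and myeloid genes to 93.3 and 98.2 CPM. Markers of other types were less even. Epithelial genes summed to 102 CPM in the Butyrate and 169 CPM in the RA members, genes of interstitial cells of Cajal to 20.002 and 40.2 CPM, and adipocyte genes to 1.90 and 15.4 CPM. Mesothelial genes summed to 49.5 CPM in the Butyrate members, with 6 of 11 at 0, against 205 CPM in the RA members, with 0 of 11 at 0, and 1 RA cell held 350 of those UMIs. Enteric glia genes summed to 72.4 CPM in the Butyrate and 9.46 CPM in the RA members, with 43 and 16 UMIs in the highest cell. At least 2 epithelial markers were found in 22 Butyrate and 103 RA members, at least 2 smooth muscle markers in 12 and 52, at least 2 mesothelial markers in 4 and 15, and at least 2 glial markers in 3 and 2. The members thus carried fibroblast genes, and some of them RNA of other cell types, whose part in the ratios was not tested except where a value without such cells is given.

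Adventitial fibroblasts were a smaller part of the Butyrate library. They made up 1.52% of its kept cells (exact binomial 95% interval 1.26 to 1.80%), against 5.98% (5.43 to 6.56%) of the kept RA cells, a ratio of 0.254 (0.206 to 0.310). Lamina propria fibroblasts were fewer as well, at 1.88% of Butyrate and 4.18% of RA cells with a ratio of 0.449 (0.367 to 0.548). Within the collagen gate, adventitial cells were 42.1% of Butyrate fibroblasts (36.4 to 47.9%) and 56.1% of RA fibroblasts (52.4 to 59.7%), a ratio of 0.750 (0.609 to 0.918). When every cell was thinned to 1000 UMIs before the rule was applied, these shares were 45.6% and 56.8%, and the interval of their ratio of 0.802 ran from 0.633 to 1.01. The share that each mouse's dissociation, loading and mitochondrial filter had in these numbers was not tested.

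Against the lamina propria fibroblasts of the same mouse, the adventitial cells carried a large and largely shared set of other genes. Of 9185 genes with at least 20 UMIs in each mouse, the sorting genes left out, 401 (4.37%) were at least 2-fold higher in adventitial cells in both mice and 539 (5.87%) at least 2-fold lower. Both populations of a contrast lay in the same library. The sort was made on these cells' counts, and the numbers describe the sorted cells only.

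The genes farthest to the adventitial side include secreted regulators and receptors. Inmt, an indolethylamine N-methyltransferase on chromosome 6 (chr6:55170626-55175043, minus strand, GRCm38), had 428 UMIs in Butyrate adventitial cells and 0 in Butyrate lamina propria cells, which makes it at least 153-fold higher against a floor of 3 counts. In the RA mouse it had 3046 UMIs in the adventitial and 12 in the lamina propria cells, a ratio of 155 (88.6 to 300.2). Gdf10, a ligand of the TGF-beta superfamily (chr14:33923587-33937983, plus strand), had 133 and 0 UMIs in the Butyrate mouse and 786 and 3 in the RA mouse, at least 47.5-fold higher in the first and a ratio of 160 (54.5 to 777) in the second. Ackr4 (chr9:104084157-104126933, minus strand), an atypical receptor that takes up the chemokines CCL19, CCL21 and CCL25, was at least 48.2-fold higher in adventitial cells of the Butyrate mouse, with a ratio of 111 (37.8 to 539) in the RA mouse. These genes were thus close to absent from the lamina propria class in either animal.

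Follistatin (Fst), which binds activins, was at least 28.9-fold higher in adventitial than in lamina propria cells of the Butyrate mouse and 42.1-fold higher in the RA mouse. Ptx3, a soluble pattern recognition protein, was 47.6-fold and 50.2-fold higher in the Butyrate and RA mouse. Stmn4, a stathmin, had 63 and 173 UMIs in adventitial cells of the Butyrate and RA mouse and 0 in the lamina propria cells of both, so that it was at least 22.5-fold and at least 35.2-fold higher. The neuropeptide Y receptor gene Npy1r was at least 35.7-fold higher in the Butyrate mouse and 72.3-fold higher in the RA mouse, and the muscarinic receptor gene Chrm3 was 111-fold and 94.8-fold higher. Sema3e, a guidance ligand, and Prrx1, a mesenchymal transcription factor, had 0 UMIs in Butyrate lamina propria cells and ratios of 128 and 127 in the RA mouse. The other genes that stood highest were Limch1, Hecw2, Adgrg2, Efhd1 and Lvrn.

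The genes farthest to the lamina propria side include a collagen, a chemokine, signalling ligands and contractile genes. Col6a5, a collagen VI chain, was at 0.953 CPM in adventitial and 201 CPM in lamina propria cells of the Butyrate mouse, and at 1.48 CPM and 219.5 CPM in the RA mouse. Cxcl9, an interferon-induced chemokine, was at 245 CPM in Butyrate and 83.8 CPM in RA lamina propria cells, with adventitial to lamina propria ratios of 0.00388 and 0.0141. The ligand genes Wnt4 (ratios 0.00687 in the Butyrate and 0.0199 in the RA mouse) and Bmp5 (0.0252 and 0.0104) and the contractile genes Acta2 (0.0151 and 0.0136) and Tagln (0.0134 and 0.0258) were low in the adventitial cells too. Without thinning, Cxcl9 had a UMI in only 8.39% of Butyrate and 6.23% of RA lamina propria cells. Acta2 was in 12.3% and 17.0% and Tagln in 12.9% and 15.6%, so a minority of that class carried these 3 genes. Hpse2, Adgrl3, Rerg and Hapln1 complete the 10 lowest genes, and Rerg had 0 UMIs in the Butyrate adventitial cells.

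**Figure D2:**
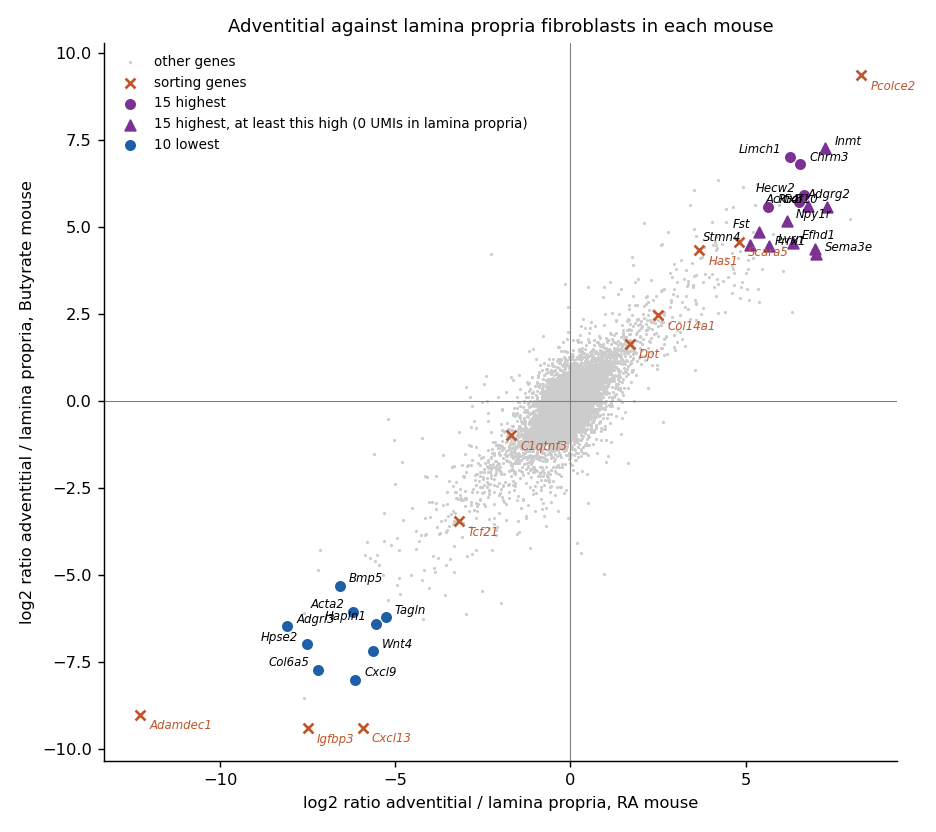
Log2 ratio of adventitial over lamina propria fibroblasts per gene in the RA mouse (horizontal axis) and the Butyrate mouse (vertical axis), from summed CPM; a gene with 0 UMIs in lamina propria cells of a mouse is drawn as a triangle at its lower bound, and genes with 0 adventitial UMIs, such as Rerg, are not drawn. The 15 highest genes, Inmt and Gdf10 among them, and the 9 drawn of the 10 lowest lie far from 0 in both animals, and the crosses are the genes that chose the cells.

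Genes of the Pi16 group of adventitial progenitors stood together. Of its 20 members with enough counts, 17 were higher in adventitial than in lamina propria cells in both mice and 2 lower, and 16 were at least 2-fold higher. Over all genes tested, 33.7% were higher in both mice, 38.9% lower in both and 4.37% at least 2-fold higher. Pi16, a peptidase inhibitor, was at 528 CPM in Butyrate and 513 CPM in RA adventitial cells, against 44.5 and 22.8 CPM in their lamina propria fibroblasts. After thinning it had a UMI in 46.4% of Butyrate and 49.0% of RA adventitial cells, and in 8.39% and 3.61% of lamina propria cells. The member farthest the other way was Procr, the protein C receptor, at 0.139 and 0.114 of its lamina propria level in the Butyrate and RA mouse. Dpp4, which marks this state in subcutaneous tissue, had a UMI in 4.80% of Butyrate and 7.29% of RA adventitial cells but in 7.69% and 8.81% of B cells, so no adventitial share of it is read from these cells.

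Genes of other mesenchymal cells were mostly lower in the adventitial cells, the trophocyte genes apart. Of 11 telocyte and subepithelial genes, which include BMP ligands near the epithelium, 10 were lower than in lamina propria cells in both mice and 1 higher, with median ratios of 0.126 in the Butyrate and 0.0838 in the RA mouse. Bmp4 was at ratios of 0.280 and 0.203 and the transcription factor gene Sox6 at 0.052 and 0.0465. Of 9 smooth muscle genes, 8 were at least 2-fold lower in both mice, beside 5.87% of all genes. Acta2 and Tagln are among them, and a minority of lamina propria cells carried these, as given above. Of 13 trophocyte genes, 8 were higher in adventitial cells in both mice and 4 lower, beside 33.7% and 38.9% of all genes. At least 2-fold, 7 were higher and 3 lower in both mice, beside 4.37% and 5.87% of all genes. The median ratios of the list were 2.09 in the Butyrate and 3.32 in the RA mouse. Cd81, a tetraspanin used to sort trophocytes, was 22.4-fold higher in the Butyrate and 16.7-fold higher in the RA mouse, and Rspo3, an R-spondin that amplifies WNT signalling, 2.48-fold and 6.38-fold. Grem1, the BMP antagonist, was at ratios of 0.739 and 1.16, on either side of 1. Ackr4, given above, also belongs to this list. The adventitial class therefore held Ackr4, Cd81 and Rspo3 at higher levels than the lamina propria class but not, in both mice, Grem1.

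Collagen genes lay on both sides, as did all genes. Of 14 collagen genes, 6 were higher in adventitial cells in both mice and 7 lower, beside 33.7% and 38.9% of all genes. At least 2-fold, 2 were higher and 3 lower in both mice, beside 4.37% and 5.87% of all genes. Col8a1, a network-forming collagen, was 19.9-fold and 28.96-fold higher in the Butyrate and RA mouse, while Col15a1 was at 0.145 and 0.127 and Col12a1 at 0.111 and 0.135. The microfibril genes Mfap5 (10.2-fold and 11.4-fold) and Fbn1 (6.17-fold and 4.75-fold) were higher, as was Adamts5, a protease that cuts proteoglycans (10.8-fold and 10.3-fold). Ugdh, which makes the UDP-glucuronate that hyaluronan synthases use, was 5.76-fold and 6.21-fold higher.

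Of 17 chemokine and cytokine genes, 6 were higher in adventitial cells in both mice and 9 lower, beside 33.7% and 38.9% of all genes. At least 2-fold, 3 were higher and 7 lower in both mice, beside 4.37% and 5.87% of all genes. The median ratios of the list were 0.634 in the Butyrate and 0.935 in the RA mouse, so it leaned to the lamina propria side. The monocyte chemokine genes Ccl2 (8.03-fold in the Butyrate and 8.18-fold in the RA mouse) and Ccl7 (22.1-fold and 17.7-fold) and the alarmin Il33 (30.8-fold and 11.5-fold) were higher, while Cxcl12, a chemokine for CXCR4, was at 0.0920 and 0.0996 of its lamina propria level. Gas1, a co-receptor for hedgehog, was 11.4-fold and 18.2-fold higher, and Penk, the proenkephalin gene, 11.1-fold and 4.96-fold. The growth factor list as a whole had 14 of 24 genes higher in both mice and 8 lower.

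Members also differed among themselves, and some genes were found in the same cells. The pairs described here were chosen after their values were seen, and they are a description, since Has1 is among the genes that chose the cells and a split by it is not independent of the rule. All shares come from cells thinned to 2000 UMIs. Ugdh was present in 80.5% of 77 Butyrate cells with a Has1 UMI (69.9 to 88.7%) and in 27.1% of 48 without one (15.3 to 41.8%), and in 76.5% of 234 (70.5 to 81.8%) and 39.6% of 164 (32.1 to 47.6%) in the RA library. Cd44, the hyaluronan receptor, followed with 40.3% and 14.6% in the Butyrate and 37.2% and 13.4% in the RA library. Ccl7 did so most, with 67.5% of Has1-positive and 10.4% of Has1-negative Butyrate cells, and 48.3% and 9.76% of RA cells.

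Cells with and without a Pi16 UMI differed for some genes and not for others. Of 58 Butyrate cells with a Pi16 UMI 10.3% had Grem1, against 17.9% of 67 without Pi16; in the RA library the shares were 10.3% of 195 and 18.2% of 203. The Butyrate intervals of 3.89 to 21.2% and 9.61 to 29.2% overlap, and so do the RA intervals of 6.38 to 15.4% and 13.2 to 24.2%. Has1 was in 65.5% of Pi16-positive and 58.2% of Pi16-negative Butyrate cells, and in 67.7% (60.6 to 74.2%) and 50.2% (43.2 to 57.3%) of RA cells. Col14a1 was in 96.6% and 91.0% of Butyrate cells, and in 98.5% (95.6 to 99.7%) and 82.3% (76.3 to 87.3%) of RA cells. For both genes the RA intervals do not overlap, but both also chose the cells. Il33 was in 32.8% (21.005 to 46.3%) of Pi16-positive and 14.9% (7.40 to 25.7%) of Pi16-negative Butyrate cells, and in 23.6% and 21.2% of RA cells. Pecam1 was in 6.90% and 16.4% of Butyrate cells and in 4.10% and 10.3% of RA cells, lower with Pi16 in both libraries and with overlapping intervals.

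The sorting genes themselves had much the same level in the adventitial cells of both mice. Dpt was at 2401 CPM in the Butyrate and 2439 CPM in the RA cells (ratio 0.985), Col14a1 at 2243 and 1907 CPM (1.18), Has1 at 1911 and 1639 CPM (1.17), Pcolce2 at 581 and 612 CPM (0.949) and Scara5 at 486 and 463 CPM (1.05). The sort used these counts in each library, so likeness here is not a result. Of the lamina propria genes, C1qtnf3 was at 166 CPM in Butyrate and 92.9 CPM in RA adventitial cells, and Adamdec1 at 19.1 and 2.37 CPM, with 12 of its 20 Butyrate UMIs in 1 cell.

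Between the mice, most genes in adventitial fibroblasts differed little. Of 10761 genes with at least 20 UMIs in the 2 libraries together, 211 (1.96%) had at least 2 times the level in the Butyrate cells and 556 (5.17%) at most 0.5 times it. Ratios above 1 made up 45.7% of genes and ratios below 1 made up 54.3%, and the median log2 ratio was -0.04. When the RA sum was thinned to the Butyrate number of UMIs, 290 genes were at or under 0.5. A smaller RA sum can take genes under the minimum, so the 290 and the 556 need not come from the same genes. The minimum was set on both libraries together, so a gene could pass it through the larger RA sum alone. The cause of the more frequent low ratios was not tested. Beyond these counts, a few gene groups were higher in nearly every member in the Butyrate cells.

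Heat shock genes were the most uniform of these groups. All 14 measured members were higher in Butyrate than in RA adventitial cells, 5 of them at least 2-fold, against 45.7% of all genes above 1 and 1.96% at least 2-fold higher, and their median ratio was 1.82. The HSP70 genes Hspa1a and Hspa1b, whose coding sequences are nearly identical so that their counts may be split between them, were at 3594 and 3671 CPM in the Butyrate cells and at 1697 and 1754 CPM in the RA cells. Dnajb1, the HSP40 partner of HSP70, was at 1651 and 796 CPM, a ratio of 2.08 (1.95 to 2.21). The small heat shock protein gene Hspb1 was at 915 CPM in the Butyrate and 376 CPM in the RA cells, a ratio of 2.43 (2.24 to 2.65), and the endoplasmic reticulum chaperone Hspa5 was at 1116 and 661 CPM, a ratio of 1.69 (1.57 to 1.81). Serpinh1, the chaperone of procollagen, was at 920 and 526 CPM, a ratio of 1.75 (1.62 to 1.89).

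Cryab, which encodes the small chaperone alpha-B crystallin (chr9:50751325-50756636, plus strand), had the highest ratio of the group. It was at 685 CPM in the Butyrate and 159 CPM in the RA adventitial cells, a ratio of 4.31 (3.85 to 4.83). Its UMIs lay in 73 of the Butyrate and 194 of the RA members, with 105 of 719 Butyrate UMIs in the highest cell. After thinning, Cryab was found in 31.2% of Butyrate and 17.1% of RA adventitial cells, in 16.1% and 8.66% of lamina propria fibroblasts, and in 0.051% and 0% of B cells. Enteric glia, which also carry Cryab, left more marker RNA in the Butyrate members (72.4 CPM against 9.46 CPM in the RA members), and their part in this ratio was not tested.

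The heat shock genes were higher in the Butyrate library in the lamina propria fibroblasts as well, but not in B cells to the same degree. In lamina propria fibroblasts 14 of 14 measured genes were higher with a median ratio of 1.75, in epithelial cells 13 of 14 with 1.41, and in B cells 7 of 13 with 1.04. Over all genes the medians in these classes were 0.985 in adventitial fibroblasts, 0.994 in lamina propria fibroblasts, 0.981 in B cells and 0.974 in epithelial cells, with 0.5 UMIs added to each sum. Whether the ratio in fibroblasts differed from that in B cells was not tested, since each class had 1 sum per mouse. Cell by cell, the summed list stood at a median of 185 UMIs per 10000 in Butyrate adventitial cells (10th to 90th percentile 40.0 to 441) and at 80.1 (20.8 to 208) in RA cells, so most of the distribution lay higher and not a few cells. Tissue dissociation is known to induce these genes, and the dissociation of each mouse cannot be told apart from its diet.

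The immediate early genes, which dissociation also induces, leaned the same way and less far. Of 21, 19 were higher in the Butyrate cells and 2 lower, with 0 at 2-fold or more. Over all genes 45.7% were above 1 and 1.96% at least 2-fold higher. The list's median log2 ratio was 0.29. Fos was at 4493 CPM in the Butyrate and 2636 CPM in the RA cells, a ratio of 1.70, Atf3 at 1468 and 823 CPM (1.78) and Ier2 at 1542 and 856 CPM (1.80). Fosl2 went the other way, at 173 and 282 CPM, a ratio of 0.616. The summed list per cell had a median of 274 UMIs per 10000 in Butyrate and 205.5 in RA cells, with wide ranges of 28.98 to 676 and 26.02 to 587 that nearly coincide.

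**Figure D3:**
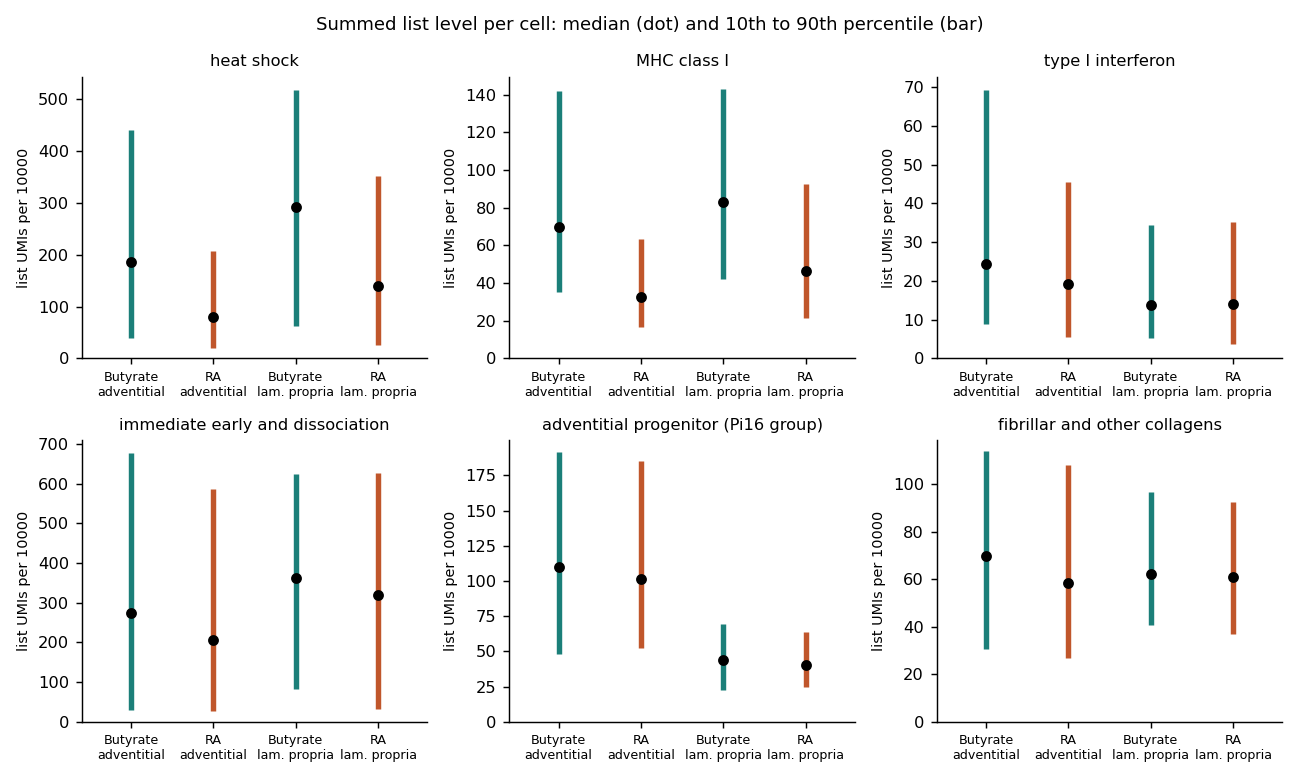
Summed UMIs of 6 gene lists per 10000 UMIs of a cell (vertical axes, from 0) in adventitial and lamina propria fibroblasts, Butyrate left of RA, with the median over cells as a dot and the 10th to 90th percentile as a bar. The medians of the heat shock and MHC class I lists in Butyrate adventitial cells, 185 and 69.9, lie above the RA medians of 80.1 and 32.8, while the Pi16 group has like levels in the Butyrate and RA cells, 110.2 and 101, and separates the classes.

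Genes of antigen presentation on MHC class I were higher across the group. Of 12, 11 were higher in Butyrate adventitial cells and 1 lower, and 6 were at least 2-fold higher. Over all genes 45.7% were above 1 and 1.96% at least 2-fold higher. The list's median log2 ratio was 0.88. H2-D1, a classical heavy chain, was at 3197 CPM in the Butyrate and 1573 CPM in the RA cells, a ratio of 2.03 (1.95 to 2.12). H2-K1 was at 1805 and 840 CPM, a ratio of 2.15 (2.03 to 2.28), and B2m, the light chain that all class I molecules share, at 2456 and 1172 CPM, a ratio of 2.10 (1.99 to 2.20). Heavy chain genes are near-identical in parts and their counts may be split among them, which does not touch B2m. B2m and H2-D1 had a UMI in all 125 Butyrate members, and in 401 and 399 of the RA members.

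The peptide transport genes moved less. Tap1 was at 47.6 CPM in the Butyrate and 29.9 CPM in the RA cells, a ratio of 1.59 (1.11 to 2.26), and the intervals of Tap2 (ratio 1.24, 0.945 to 1.62) and Tapbp (1.16, 0.981 to 1.37) included 1. Nlrc5, the transactivator of class I genes, was at 20.954 CPM in the Butyrate and 20.999 CPM in the RA cells, a ratio of 0.998. The class I list was also higher in the Butyrate library in 12 of 12 genes in lamina propria fibroblasts (median ratio 1.49), in 12 of 12 in epithelial cells (1.62) and in 10 of 12 in B cells (1.19), against 1.85 in adventitial cells. Per cell, the adventitial median was 69.9 UMIs per 10000 in the Butyrate (35.0 to 142) and 32.8 in the RA mouse (16.8 to 63.5), so that the Butyrate 10th percentile lay above the RA median.

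Interferon-induced genes followed, at lower levels. Of 17 type I interferon genes, 15 were higher in Butyrate adventitial cells and 2 lower, beside 45.7% and 54.3% of all genes. At least 2-fold, 4 were higher and 1 lower, beside 1.96% and 5.17% of all genes. The list's median log2 ratio was 0.50. Ifit3, an antiviral effector (chr19:34583531-34588731, plus strand), was at 153 CPM in the Butyrate and 47.9 CPM in the RA cells, a ratio of 3.20 (2.56 to 4.01). It was found in 13.6% of Butyrate and 4.77% of RA cells after thinning, so most cells showed no UMI of it. Without thinning, its 161 Butyrate UMIs lay in 28 cells, with 48 of them in 1 cell. Ifit1 was at 81.9 and 35.8 CPM, a ratio of 2.29 (1.72 to 3.04), and was in 11.2% and 3.52% of cells. Ifi27l2a, the gene of this list with the most UMIs, was at 2231 CPM in the Butyrate and 1684 CPM in the RA cells, a ratio of 1.32 (1.26 to 1.39).

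Other genes of the list did not differ so clearly. Rsad2, which encodes viperin, was at 39.1 and 14.2 CPM, but 1 cell held 24 of its 41 Butyrate UMIs, and Bst2, or tetherin, had a ratio of 1.03 (0.892 to 1.19), with UMIs in 86 Butyrate and 229 RA members. Ifi204 was at 206 CPM in the Butyrate and 212 CPM in the RA cells, a ratio of 0.969 (0.828 to 1.13). Ifi44 had 2 Butyrate and 32 RA UMIs, and its ratio of 0.201 was 1.57 without members that held mesothelial markers. In the other classes, the type I list was above 1 for 10 of 16 genes in lamina propria fibroblasts (median ratio 1.24), 15 of 18 in B cells (1.203) and 18 of 18 in epithelial cells (2.31).

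The starts of several of these genes hold the letters that interferon-regulated and heat shock factors are known to bind, and short windows are printed to show where they lie. The windows come from the RefSeq promoter table of GRCm38.p6, which runs from 250 bases before each gene's start to 50 after it. Each line gives 100 bases, 5′ to 3′ on the gene's strand, and capitals mark GAAANNGAAA or its reverse complement in the first 5 lines and overlapping matches of GAANNTTCNNGAA or its reverse complement in the sixth.
Ifit1, chr19:34640765-34640864, plus strand: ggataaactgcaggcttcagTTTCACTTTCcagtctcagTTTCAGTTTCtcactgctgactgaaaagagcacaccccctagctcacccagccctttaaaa
Ifit3, chr19:34583353-34583452, plus strand: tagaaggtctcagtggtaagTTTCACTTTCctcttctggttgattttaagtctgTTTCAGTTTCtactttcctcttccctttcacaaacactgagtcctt
Rsad2, chr12:26456493-26456592, minus strand: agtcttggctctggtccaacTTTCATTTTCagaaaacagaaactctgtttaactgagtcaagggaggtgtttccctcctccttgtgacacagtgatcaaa
Cxcl10, chr5:92349023-92349122, minus strand: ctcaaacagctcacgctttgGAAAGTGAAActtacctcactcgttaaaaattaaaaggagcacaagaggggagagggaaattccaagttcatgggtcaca
B2m, chr2:122147528-122147627, plus strand: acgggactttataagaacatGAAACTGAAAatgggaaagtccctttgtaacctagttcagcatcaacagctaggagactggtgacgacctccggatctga
Hspe1, chr1:55088039-55088138, plus strand: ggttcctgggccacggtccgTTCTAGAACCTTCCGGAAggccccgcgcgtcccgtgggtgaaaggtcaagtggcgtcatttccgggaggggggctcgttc

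Ifit1 and Ifit3 each hold the interferon motif 2 times in their windows, and Rsad2, Cxcl10 and B2m hold it 1 time. Over all 32851 promoter windows of the table, 1131 (3.44%) hold GAAANNGAAA on either strand, against 8 of the 13 type I interferon genes and 2 of the 10 MHC class I genes that have a window. GAANNTTCNNGAA is in 198 windows (0.603%), and in those of 3 of 10 heat shock genes, Hspe1, Hspd1 and Hsph1. Hspe1 and Hspd1 lie head to head on chromosome 1 and share the stretch shown, and their ratios of 1.82 and 1.83 in adventitial cells were alike. A match describes letters and not binding.

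Genes induced by interferon gamma were of 2 kinds, those spread over many fibroblasts and those in few. Irf1, a transcription factor, was at 363 CPM in Butyrate and 217 CPM in RA adventitial cells, a ratio of 1.67 (1.47 to 1.89), and the GTPase Gbp2 at 102 and 62.7 CPM, a ratio of 1.63 (1.28 to 2.06). The MHC class II genes had the highest ratios, 4.01 for H2-Aa and 3.68 for Cd74, but their UMIs lay in 7 and 12 Butyrate cells. Without members that held a UMI of Ptprc, Pecam1, Myh11, Krt8 or Msln, these ratios were 0.795 and 0.547. Of 15 genes in this list, 13 were higher in the Butyrate cells, beside 45.7% of all genes.

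**Figure D4:**
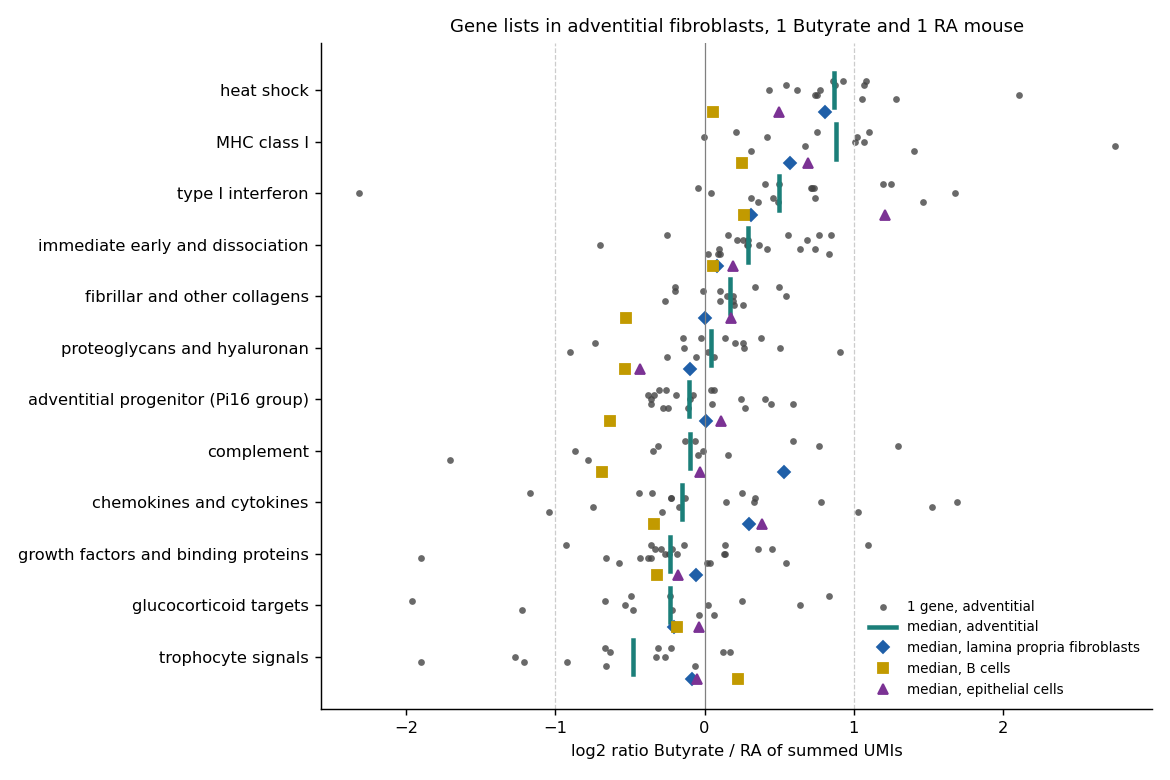
Log2 ratio of Butyrate over RA in adventitial fibroblasts (horizontal axis) for each gene with at least 20 UMIs in 12 lists, as dots, with the list median as a bar and the medians of the same list in lamina propria fibroblasts, B cells and epithelial cells as symbols; genes at 0 in either library are not drawn. All 14 heat shock genes lie right of 0, the heat shock median in B cells is near 0, and 12 of 14 trophocyte genes lie left of 0. Over all genes 45.7% of ratios were above 1 and 54.3% below 1.

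As a list, chemokines and cytokines divided like all genes. Of 18 genes, 8 were higher in the Butyrate cells and 10 lower, where 45.7% of all genes were above 1 and 54.3% below it, with a median log2 ratio of -0.15. Cxcl10, an interferon-induced chemokine for T cells (chr5:92346638-92348889, minus strand), was at 310 CPM in the Butyrate and 96.1 CPM in the RA cells, a ratio of 3.22 (2.75 to 3.77). It was found in 19 Butyrate and 46 RA members, and 129 of its 325 Butyrate UMIs lay in 1 cell. After thinning, its shares were 8.80% of Butyrate and 6.53% of RA adventitial cells, against 32.3% and 19.1% of lamina propria fibroblasts. The interferon gene Ifit1 was in 45.5% of 11 Butyrate cells with Cxcl10 (16.7 to 76.6%) and in 7.89% of 114 without it (3.67 to 14.5%), and in 11.5% of 26 (2.45 to 30.2%) and 2.96% of 372 (1.49 to 5.23%) RA cells, where the intervals overlap. Ifit3 showed no such difference, at 18.2% with and 13.2% without Cxcl10 in the Butyrate and 3.85% and 4.84% in the RA library.

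The more abundant chemokines differed less. Ccl2 was at 2720 CPM in the Butyrate and 2157 CPM in the RA cells, a ratio of 1.26 (1.21 to 1.32), Ccl7 at 1158 and 919 CPM (1.26), and the neutrophil chemokine Cxcl1 at 1434 and 1203 CPM (1.19). Ccl11, or eotaxin, was at 774 and 945 CPM, a ratio of 0.819 (0.758 to 0.885), and Csf1, the macrophage growth factor, at 224 and 304 CPM, a ratio of 0.736 (0.636 to 0.849). Ccl8 had 25 Butyrate and 28 RA UMIs and a ratio of 2.88 (1.61 to 5.11). Il6 was at 99.1 CPM in the Butyrate and 223 CPM in the RA cells, a ratio of 0.445 (0.359 to 0.547), but at 0.992 without members holding a UMI of another cell type's gene. The 10% of cells with the highest list counts held 41.2% of the list's UMIs in the Butyrate and 51.2% in the RA library, so few cells set these sums.

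Complement genes differed in both directions. C4b, the source of C4 in the classical pathway, was at 476 CPM in Butyrate and 194 CPM in RA adventitial cells, a ratio of 2.46 (2.18 to 2.77), and its ratio was 2.73 in lamina propria fibroblasts. It was in 41.6% and 25.1% of adventitial cells and in 83.9% and 53.4% of lamina propria cells after thinning. C3 was at 2020 and 2113 CPM (ratio 0.956), and C1s1 at 582 and 599 CPM (0.972). Cd55, which speeds the decay of C3 convertases and also belongs to the Pi16 group, was at 1375 and 912 CPM, a ratio of 1.51 (1.42 to 1.61), while C7, a part of the lytic complex, was at 67.6 and 116 CPM, a ratio of 0.582 (0.445 to 0.751). Cfd, or factor D, which adipocytes also carry, had 0 Butyrate UMIs and 25 RA UMIs in 23 cells, and C1rl had 2 and 21 UMIs, a ratio of 0.307 (0.0349 to 1.25). Of 14 genes 4 were higher in the Butyrate cells and 10 lower, beside 45.7% and 54.3% of all genes. At least 2-fold, 1 was higher and 2 lower, beside 1.96% and 5.17% of all genes.

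Matrix genes stayed near their RA level, with a lean towards higher collagen. Of 14 collagen genes, 10 were higher in Butyrate adventitial cells and 4 lower, beside 45.7% and 54.3% of all genes. The list's median log2 ratio was 0.17. Col1a1 was at 2972 CPM in the Butyrate and 2100.5 CPM in the RA cells, a ratio of 1.41 (1.36 to 1.48), and 1.10 in lamina propria fibroblasts. The collagen-binding protein gene Sparc had a ratio of 1.33 (1.28 to 1.39), periostin (Postn) 1.39 (1.28 to 1.502) and fibronectin (Fn1) 1.23 (1.16 to 1.31), while the matrix glycoprotein gene Tnc was at 49.5 CPM in the Butyrate and 105 CPM in the RA cells, a ratio of 0.473 (0.347 to 0.634). Of 14 elastic fibre genes, 5 were higher and 9 lower; Efemp1, or fibulin-3, was at 485 and 736 CPM, a ratio of 0.658 (0.597 to 0.724).

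Among proteoglycan and hyaluronan genes 9 of 16 were higher in the Butyrate cells and 7 lower, beside 45.7% and 54.3% of all genes. Decorin, the most abundant, was at 11221 CPM in the Butyrate and 12381 CPM in the RA cells, a ratio of 0.906 (0.888 to 0.925). Versican (Vcan) was at 388 and 273 CPM, a ratio of 1.42 (1.26 to 1.60), and Gpc3, a glypican, at 130.5 and 217 CPM, a ratio of 0.600 (0.496 to 0.721). Has2, the other main hyaluronan synthase (chr15:56665627-56694539, minus strand), was at 118 and 63.0 CPM, a ratio of 1.87 (1.49 to 2.35), against 0.608 in lamina propria fibroblasts. The stress-responsive matricellular gene Ccn1 was at 2129 and 999 CPM, a ratio of 2.13 (2.02 to 2.25), with 1.12 in lamina propria fibroblasts.

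Trophocyte genes leaned the other way gene by gene. Of 14 trophocyte genes, 12 were lower in Butyrate adventitial cells and 2 higher, with 3 at or under 0.5. The median log2 ratio was -0.48. Over all genes 54.3% were below 1 and 5.17% at or under 0.5. The summed list per cell had nearly the same median in both mice, 34.09 UMIs per 10000 in Butyrate and 34.01 in RA adventitial cells. Grem1 was at 114 CPM in the Butyrate and 181 CPM in the RA cells, a ratio of 0.630 (0.514 to 0.768), Rspo3 at 70.5 and 111 CPM (0.634, 0.487 to 0.815) and Wnt2 at 35.2 and 54.7 CPM (0.644, 0.440 to 0.921). Rspo1 had 13 Butyrate and 97 RA UMIs, a ratio of 0.432 (0.222 to 0.773). This lean did not hold under every setting: with each cell thinned to 1000 UMIs the median ratio of the list was 1.02 in place of 0.717, and the Grem1 ratio was 0.982. Of 8 telocyte and subepithelial genes with enough counts, 3 were higher in the Butyrate cells and 5 lower. The ligand gene Bmp2 was at 121 CPM in the Butyrate and 68.9 CPM in the RA cells, a ratio of 1.76 (1.40 to 2.19), and Bmp4 at 162 and 149 CPM (1.08, 0.906 to 1.29).

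The wider list of growth factors and their binding proteins had 15 of 24 genes lower in the Butyrate cells, against 54.3% of all genes. Gas1 was at 202 CPM in the Butyrate and 300.2 CPM in the RA cells, a ratio of 0.673 (0.577 to 0.781), and Vegfd, a lymphatic growth factor, at 62.9 and 99.4 CPM, a ratio of 0.633 (0.478 to 0.826). Igfbp6, a binding protein for IGF2, was at 708 and 906 CPM, a ratio of 0.781 (0.720 to 0.847), but 332 of its 3062 RA UMIs lay in 1 cell. Tgfb2 was at 163 and 127 CPM, a ratio of 1.28 (1.07 to 1.54). The Pi16 group stayed near 1, with 8 genes higher and 12 lower and a median log2 ratio of -0.10: Pi16 had a ratio of 1.03 (0.934 to 1.13), Ly6a, or Sca-1, 1.32 (1.25 to 1.40, a gene with close paralogs), and Pdgfra 0.769 (0.686 to 0.859).

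Several of the genes that mark the adventitial class most sharply were lower in the Butyrate mouse. Inmt was at 408 CPM in the Butyrate and 901 CPM in the RA cells, a ratio of 0.453, Gdf10 at 127 and 233 CPM (0.545), and Fst at 77.2 and 163 CPM (0.473). Adgrg2 had a ratio of 0.526 and Lvrn 0.590. Chrm3 (0.719), Efhd1 (0.778), Sema3e (0.797), Ackr4 (0.798), Ptx3 (0.870) and Prrx1 (0.898) were also under 1. Of these, the intervals of Chrm3 and Ackr4 exclude 1, but Ackr4 was 1.33 with each cell thinned to 1000 UMIs. Npy1r (1.36, and 0.939 thinned), Stmn4 (1.17), Hecw2 (1.07) and Limch1 (1.02) were above 1. Most of the 15 were thus lower in the Butyrate mouse, but not all, beside 54.3% of all genes. The 15 were ranked by the lower of each gene's ratios to lamina propria cells in the mice, which for most was the RA ratio. That ranking favours genes that are high in RA adventitial cells, so this count is a description and not a result.

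**Figure D5:**
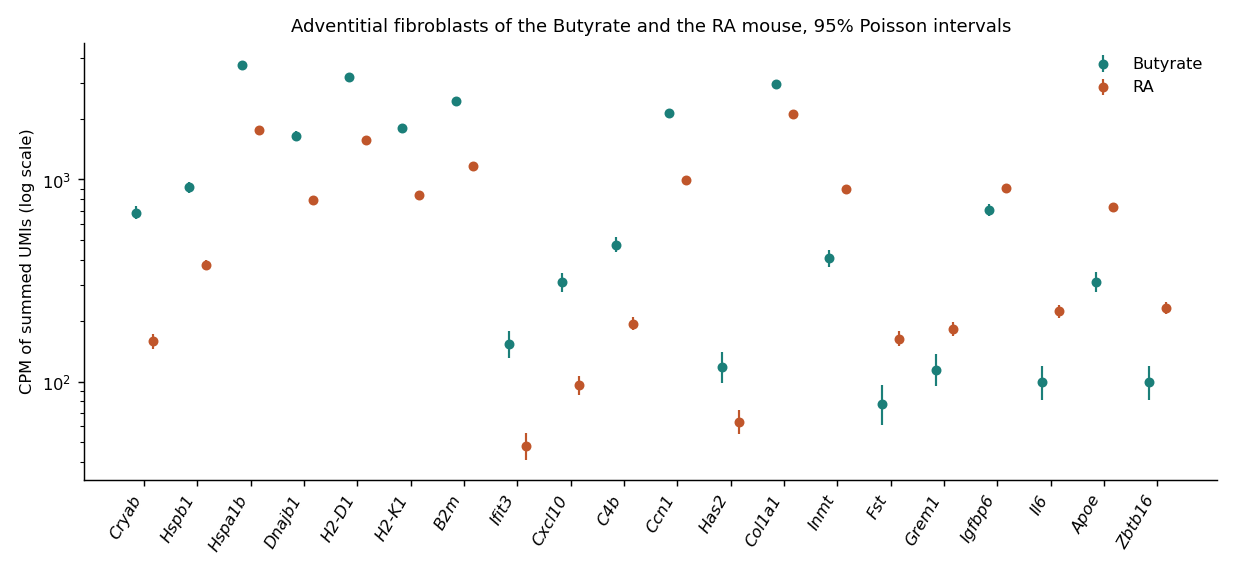
Level of 20 genes in the summed adventitial fibroblasts of the Butyrate mouse and the RA mouse (vertical axis, CPM, log scale) with exact Poisson 95% intervals, Butyrate left of RA; the genes are among those named in the text. Cryab (685 and 159), Ifit3 (153 and 47.9) and Cxcl10 (310 and 96.1 in the Butyrate and RA cells) show wide gaps upwards, and Inmt (408 and 901) and Zbtb16 (99.1 and 231) gaps downwards.

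Hormone and metabolic lists gave few sharp differences. Of 15 glucocorticoid target genes, 5 were higher in the Butyrate cells and 10 lower, beside 45.7% and 54.3% of all genes. Zbtb16, a transcription factor gene that glucocorticoids induce strongly, was at 99.1 CPM in the Butyrate and 231 CPM in the RA cells, a ratio of 0.428 (0.346 to 0.526), and 0.425 in lamina propria fibroblasts. Fkbp5, the usual readout of the same receptor, had a ratio of 0.711 (0.545 to 0.917) and Errfi1 0.631 (0.563 to 0.705), but Dusp1 and Cdkn1a, which many stresses induce, were higher at 1.56 and 1.78. Of 12 hypoxia and glycolysis genes 2 were higher and 10 lower, with a median log2 ratio of -0.22, and the fatty acid oxidation and cholesterol synthesis lists had medians of -0.06 and -0.01.

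Of 12 genes for butyrate receptors, transporters and deacetylases with enough counts, 3 were higher in the Butyrate cells and 9 lower. At or under 0.5 were 2 of them, and the median ratio was 0.799. Over all genes 45.7% were above 1, 54.3% below 1 and 5.17% at or under 0.5. The short-chain fatty acid receptor gene Ffar2 had 1 UMI in the Butyrate and 1 in the RA members, Ffar3 had 0 and 0, and the butyrate receptor gene Hcar2 had 0 and 2. The transporter gene Slc16a1, or MCT1, was at 39.0 CPM in the Butyrate and 50.6 CPM in the RA cells, a ratio of 0.772 (0.535 to 1.09), and Bsg, the chaperone of such transporters, at 252 and 222 CPM (1.13, 0.983 to 1.31). Among the deacetylases that butyrate inhibits, Hdac1 had a ratio of 0.752 (0.517 to 1.07), Hdac2 0.792 (0.561 to 1.10) and Hdac3 0.963 (0.613 to 1.47). The 2 lowest were Hdac6, with 2 Butyrate and 21 RA UMIs (ratio 0.307, 0.0349 to 1.25), and the transporter gene Slc16a3, with 1 and 20 (0.161, 0.00388 to 1.01). Hdac5 had a ratio of 1.42 (1.02 to 1.96). Apart from Hdac5, the intervals of these genes include 1, and differences smaller than they span were not detectable at this depth.

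The genes with the most extreme ratios were often those of a few cells. At the high end, Csf2 had 57 Butyrate UMIs, all in 1 cell, against 5 in the RA members. Chl1, a neural cell adhesion gene (chr6:103510586-103750211, plus strand), had 47 UMIs in 6 Butyrate cells and 14 in 6 RA cells, a ratio of 10.8 (5.85 to 21.3). Ank3 had 23 of its 52 Butyrate UMIs in 1 cell. Ereg, which encodes the EGF receptor ligand epiregulin (chr5:91074622-91093646, plus strand), was spread over 17 Butyrate and 30 RA cells, at 60.005 CPM in the Butyrate and 20.1 CPM in the RA cells, a ratio of 2.98 (2.08 to 4.27). The 10 highest also hold Cryab, Ifit3, Ifit3b, Cxcl10, Ccl8 and the histone gene H4c4, whose counts may be shared with near copies.

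At the low end, 7 of the 10 genes had 0 UMIs in the Butyrate members. The neutrophil genes S100a9 and S100a8 had 372 and 190 RA UMIs, of which 371 and 190 lay in 1 cell each, and Retnlg, also of neutrophils, had 83 in 2 cells. The mesothelial genes Upk3b and Msln had 117 and 80 RA UMIs in 5 and 4 cells, and Ano1 had 57 in 7. Gpr39, which encodes a zinc-sensing receptor (chr1:125676995-125873862, plus strand), was in more cells: its 84 RA UMIs were spread over 35 cells with at most 8 in any, and it was at 24.8 CPM in the RA members against 0 in the Butyrate members, at least 8.69-fold lower against a floor of 3 counts. Its Butyrate to RA ratio in lamina propria fibroblasts was 1.13. Epithelial cells held it at 48.7 CPM in the Butyrate and 39.6 CPM in the RA library, above the RA members, of which 103 carried at least 2 epithelial markers, and the part of epithelial RNA in this difference was not tested. Apoe, an abundant gene, was at 311.5 CPM in the Butyrate and 730 CPM in the RA cells, a ratio of 0.427 (0.379 to 0.479), but 580 of its 2469 RA UMIs were in 1 cell and the ratio was 0.963 without members holding another cell type's gene.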

How the data were processed

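Single cells from the whole intestine of 2 mice were captured with 10x Genomics 3' chemistry, version 3.1, per the labels' protocols. The authors deposited raw UMI counts per gene and barcode for each library. Cell Ranger 7.1.0 made them per the file headers, while the submitters' processing notes name Cell Ranger 6.0.1, Seurat 4.0.3 and 4.0.4, and mm10; whether intronic reads were counted is not given in the sources used here. The members and gene lists were chosen with earlier results of these data known. Groups follow the sample titles. Counts were read with scipy 1.17.1 in Python 3.11.15, and cells were filtered and sorted as given with the results. B cells had at least 2 UMIs of Cd79a and none of Epcam, and epithelial cells at least 2 of Epcam and none of Cd79a. Both classes had no UMI of Col1a2 or Col3a1. No doublet caller was run: the rule leaves out cells with a UMI of Cdh5 or Epcam or with 2 or more of Cd79a, and an alternative leaves out members with a UMI of Ptprc, Pecam1, Myh11, Krt8 or Msln (40 Butyrate and 136 RA members). UMIs were summed over the members of a library and scaled to a total of 1000000 (CPM). Ratios carry exact conditional binomial intervals, levels exact Poisson and shares Clopper-Pearson intervals, all at 95%; a count of 0 was set to a floor of 3 counts per library. Genes under 20 UMIs were not counted. List medians that set cell classes side by side have 0.5 UMIs added to each sum; the others have none. Named genes are the sorting genes, the 10 highest and 10 lowest Butyrate over RA ratios at 50 or more UMIs with an interval that excludes 1, the 15 highest and 10 lowest adventitial over lamina propria genes, and in each list the 5 with most UMIs and the 2 farthest; other genes named, such as C4b, Rsad2, Zbtb16, Gas1 and Vegfd, were chosen after their values were seen. Coordinates are those of GENCODE M21 on GRCm38, in which 31107 of 31253 gene identifiers were found. The ratios and intervals were tested on simulated Poisson sums without single cells, the model they assume, so that run cannot show how they hold where UMIs lie in few cells. Some genes of the lists and of the named rule are not reported here. Alternatives changed the filters, rule limits, depth, doublet genes and scaling.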

Additional observations from a re-analysis of the deposited data

Results flagged for a closer look

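The 4 genes given here had Butyrate to RA ratios on opposite sides of 1 in the fibroblast classes, with intervals that exclude 1 and a ratio of ratios of at least 1.5; with 1 mouse a group the difference between the classes was not tested. Has2, the hyaluronan synthase gene, was at 1.87 in adventitial and 0.608 in lamina propria fibroblasts, and asporin (Aspn), a small leucine-rich proteoglycan gene, at 1.15 and 0.722, though its adventitial ratio was 0.877 with each cell thinned to 1000 UMIs. Ifi27l2a, an interferon-induced gene, was at 1.32 and 0.880, and the phosphatase gene Dusp1 at 1.56 and 0.932. Outside the cell filters, 1 Butyrate barcode and 4 RA barcodes met the sorting rule, all above the mitochondrial limit; they enter no value given here.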

How the results depend on the processing

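No paired analysis was possible because each group had 1 mouse, and for the same reason no replicate could be left out. The Butyrate to RA ratios of the adventitial shares stayed below 1 and within their intervals under the alternatives run, but the shares moved: of kept cells they were 1.25% and 4.08% with cells thinned to 1000 UMIs and 1.04% and 4.19% without fibroblasts holding another cell type's gene, and of fibroblasts 43.6% and 63.4% in that last setting (Butyrate and RA). The counts of genes past 2-fold moved with depth. The 211 genes higher in Butyrate cells were 129 with each cell thinned to 1000 UMIs, 64 at 50 or more UMIs and 1844 with no minimum. The 556 lower were 361, 189 and 4541 under those settings, and 290 with the RA sum thinned to the Butyrate UMIs. Of adventitial over lamina propria genes, the 401 higher were 152 thinned and 1166 with no minimum, and the 539 lower were 147 thinned, 326 at 50 or more UMIs and 1650 with no minimum. For 219 named genes, 16 of 2484 values reversed. Thinned, Ackr4 was 1.33, Adamts5 0.851, Aspn 0.877, Iigp1 0.945 and Npy1r 0.939. Without members holding another cell type's gene, Cd74 was 0.547, Col5a2 0.987, Col8a1 0.987, H2-Aa 0.795, Ltbp4 0.978, Rarres2 1.03 and Sfrp1 0.930; with Pecam1 left in, Cd74 was 0.7105 and H2-Aa 0.738. Without mesothelial-marker cells Ifi44 was 1.57, and as a mean over cells Rarres2 was 1.02. The cause was not tested. List medians ranged over the alternatives from 1.82 to 2.20 for heat shock, 1.68 to 2.09 for MHC class I, 1.37 to 1.73 for type I interferon, 1.19 to 1.26 for immediate early and 0.690 to 1.02 for trophocyte genes.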
